A study of Bos taurus with 6 samples.

Results

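The genes described here are the transcription factors that direct skeletal muscle formation, together with myostatin, the secreted inhibitor of muscle growth, and follistatin, its antagonist. 10 genes were listed: MYOD1, MYF5, MYOG, MYF6, PAX7, MEF2A, MEF2C, MEF2D, MSTN and FST. A probe set was taken where the platform annotation names exactly 1 gene and that gene is on the list. This gave 12 of the 24016 non-control probe sets, for 8 of the 10 genes. No probe set was matched to PAX7, the transcription factor of muscle stem cells, or to MEF2D, and these 2 are not analysed here.

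MYOD1, MYF5, MYOG and MYF6 are the myogenic regulatory factors, helix-loop-helix proteins that pair with E proteins such as TCF3 and TCF12 and bind E-box sequences in muscle genes. MYF5 and MYOD1 commit precursor cells to the muscle lineage, MYOG drives their fusion and differentiation, and MYF6 is the form that predominates in adult fibres. MEF2A, MEF2C and MEF2D are MADS-box factors that act with them. Myostatin, encoded by MSTN, is a ligand of the TGF-beta family that binds activin receptors on muscle and signals through SMAD2 and SMAD3, and loss of its function enlarges the muscles of some cattle breeds. Follistatin, encoded by FST, binds and neutralises it.

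RNA came from the longissimus thoracis, a muscle along the back, of 6 castrated males of the Japanese Black breed. Fattening began at 13 to 14 months and ended at 20 to 21 months of age, after 7 months at an intended daily gain of 1.0 kg. In the supplemented group, 3 steers were given vitamin A orally once a week at 296.8 IU per kg of body weight. In the restricted group, 3 steers had no such supplement. Each steer gave 1 array, so the p-values set the difference between the diets against the spread between steers of a diet, as deposited. At sampling the supplemented steers were 610.0 ± 9.17 days old and the restricted steers 598.3 ± 11.4 days (mean and SD of 3 steers; p = 0.2 in an exact two-sided permutation test, where 0.1 is the smallest p possible).

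The deposited values run from 4.807 to 12.673 as means of the 24016 probe sets and were taken as log2 values. They differ extremely little between arrays, by a median of 0.677 millionths of a log2 unit from the lowest to the highest array, for a reason not given in the sources used here. Differences are therefore given in millionths of a deposited log2 unit and in within-group standard deviations (SDs) of the same probe set, never as fold changes. Each gene taken by its highest-reading probe set, all 9 measured markers of the muscle fibre lay at or above the 99.7th percentile of level. ACTA1, CKM and DES are among them, and another probe set of CKM lay at the 78.0th percentile. The samples thus carry the markers of the labelled tissue. The comparison of the diets called 1 probe set of 24016, DHRS3, which is lower in restricted steers and no member of the group described here. That is 0.00416% called at a limma adjusted p under 0.05. At an unadjusted p under 0.05 the share was 4.08%, of which 1.91% were higher and 2.17% lower in restricted steers.

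None of the 12 member probe sets passed the limma adjusted threshold, and each had an adjusted p of 1.0. At an unadjusted p under 0.05 the count was 1, the probe set of MYOG. In restricted steers 7 member probe sets had higher and 5 had lower values, with a median difference of 0.301 SDs, against 11600 higher, 12416 lower and a median of -0.0328 SDs over all tested probe sets. The median was -0.0149 SDs without supplemented steer 3 and -0.0128 with age as a covariate, where its sign turned. When the medians of the arrays were aligned, 2 members were higher and the median was -0.745 SDs. Aligning them moves every difference by -2.22 millionths, which exceeds the full spread of 6 of the 12 member probe sets, and its values are given at MYOG.

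Of the 12 member probe sets 6 lay below the median level of the array, where the values of many transcripts crowd together. The lowest mean was 4.807, the 25th percentile 4.999 and the median 5.145. 1 member probe set lay under the 25th percentile and so near the lowest values, the MSTN probe set Bt.605.1.S1_at at 4.971 (18.7th percentile, 0.164 above the lowest mean). Just above that limit lay MYF5 at 5.018 (28.9th percentile), the MYOD1 probe set Bt.13078.1.S1_at at 5.027 (30.6th) and the MEF2A probe set Bt.29891.1.A1_at at 5.032 (31.6th). No member was under the 10th percentile. MYF6, at 7.532 and the 97.4th percentile, was the member farthest above the lowest values, by 2.72. These positions say where a probe set reads on its array and do not compare the abundance of different transcripts, and no detection calls were used here.

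**Figure D1:**
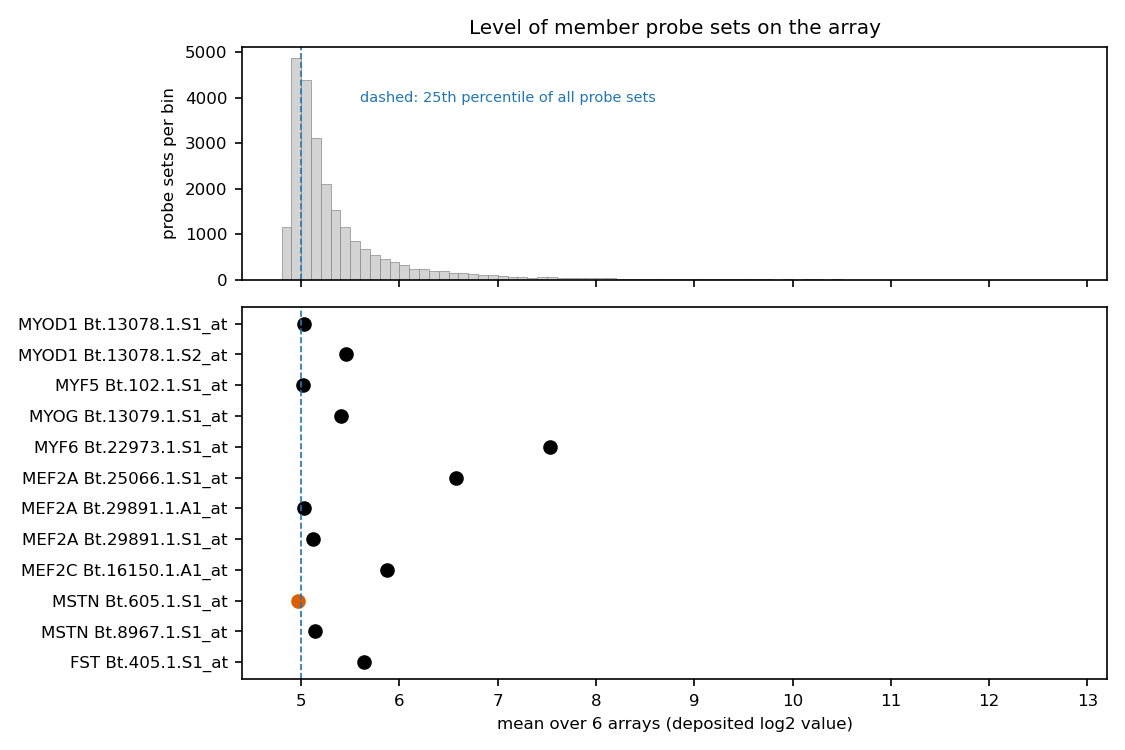
Upper panel: number of non-control probe sets per 0.1 log2 bin of the mean over 6 arrays. Lower panel: the mean of each of the 12 member probe sets on the same axis, with the dashed line at the 25th percentile (4.999); the MSTN probe set Bt.605.1.S1_at (orange) lies to the left of it and MYF6, at 7.532, far to the right.

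MYOD1, which commits cells to the muscle lineage, has 2 probe sets, and they differed between the diets in opposite directions. Around its mean of 5.027, Bt.13078.1.S1_at deviated by 0.311, 0.235 and -0.201 millionths in supplemented steers 1, 2 and 3 and by -0.168, 0.00967 and -0.185 in restricted steers 1, 2 and 3. Supplemented steers 1 and 2 were above every restricted steer, but supplemented steer 3 was the lowest of all, so the groups overlap. The difference was -0.229 ± 0.164 millionths (SE, n = 3 each), or -1.09 SDs (limma unadjusted p = 0.226). It was -0.131 millionths without supplemented steer 1, -0.387 without supplemented steer 3 (limma unadjusted p = 0.0142) and -0.368 with age as a covariate. Around 5.46, Bt.13078.1.S2_at deviated by 0.00683, 0.554 and -0.897 millionths in supplemented and by 0.274, 0.484 and -0.421 in restricted steers. Supplemented steer 3 was again the lowest, and the steers numbered 2 were the highest of both diets. This probe set differed by 0.224 ± 0.476 millionths (SE) or 0.364 SDs, and its sign turned after median alignment and when age was a covariate.

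MYF5, the other factor of lineage commitment, had the narrowest spread of the members. Around 5.018 its deviations were 0.0142, 0.0122 and -0.00683 millionths in supplemented steers 1, 2 and 3 and -0.0328, 0.0152 and -0.00183 in restricted steers 1, 2 and 3. Restricted steer 1 stands below the other 5, which lie close together, and the groups overlap. The whole range of 0.048 millionths is at the 5.04th percentile of all probe sets, where the last decimal of the file is worth 0.001 millionths. The difference was -0.013 ± 0.0285 millionths (SE) or -0.682 SDs, and without restricted steer 1 it was 0.000167 millionths.

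MYOG, the factor of terminal differentiation, was the 1 member whose groups did not overlap, with all 3 restricted steers above all 3 supplemented ones. Around its mean of 5.401 the deviations were -0.835, -0.110 and -1.29 millionths in supplemented steers 1, 2 and 3, and 1.34, 0.730 and 0.161 in restricted steers 1, 2 and 3. Supplemented steer 2 and restricted steer 3, the nearest of the 2 groups, both lay close to the mean. The groups averaged -0.744 ± 0.594 and 0.744 ± 0.590 millionths (SD, n = 3 each). The difference of 1.49 ± 0.457 millionths (SE) equals 2.51 SDs, with a 95% interval from 0.271 to 2.71 millionths, a limma unadjusted p of 0.0265 and an adjusted p of 1.0. By unadjusted p it ranked 512th of the 24016 probe sets. Groups without overlap and higher in restricted steers were found in 4.12% of all probe sets, lower ones in 4.64%, and either in 8.76%.

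The direction of MYOG was kept when any single steer was left out, at 1.19 to 1.81 millionths. Its limma unadjusted p was 0.0761 without supplemented steer 1 and 0.0734 without supplemented steer 3. It was 0.0688 without restricted steer 1 and 0.0703 without restricted steer 2. Without supplemented steer 2 or restricted steer 3 it was 0.0193 or 0.0239. With age as a covariate the difference was 1.08 millionths (limma unadjusted p = 0.107). It turned to -0.736 millionths, or -0.282 SDs, when the array medians were aligned. The array medians span 8.88 millionths, from supplemented steer 3 at -4.765 to restricted steer 1 at 4.111 around their mean. By contrast, the median deviation of all probe sets from their own means was small. It lay between -0.00817 millionths in restricted steer 2 and 0.0055 in supplemented steer 2. With the arrays shifted by this deviation, MYOG differed by 1.49 millionths. An array's median is set by the few probe sets at its middle, so aligning medians cannot show a shift shared by all. After median alignment, the 9 member probe sets whose ranges are below 8.88 millionths all read highest in supplemented steer 3, the array whose median is lowest.

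MYF6, the factor of adult fibres, varied most of the members from steer to steer. Around 7.532 the deviations were -346, -261 and 482 millionths in supplemented steers 1, 2 and 3 and 186, -195 and 135 in restricted steers 1, 2 and 3. The supplemented group holds both the highest steer and the 2 lowest, and the restricted steers all lie between them. Its range of 828 millionths is at the 99.1st percentile of all probe sets. The difference between the diets, 84.0 ± 273 millionths (SE) or 0.238 SDs (limma unadjusted p = 0.772), has a 95% interval from -642 to 810 millionths. It was 346 millionths without supplemented steer 3, -68.1 without supplemented steer 1 and 287 with age as a covariate. MYF5 and MYF6 are neighbours in the ARS-UCD2.0 gene annotation, with 0 protein-coding genes between them, but their steers rank differently, the lowest being restricted steer 1 for MYF5 and supplemented steer 1 for MYF6.

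**Figure D2:**
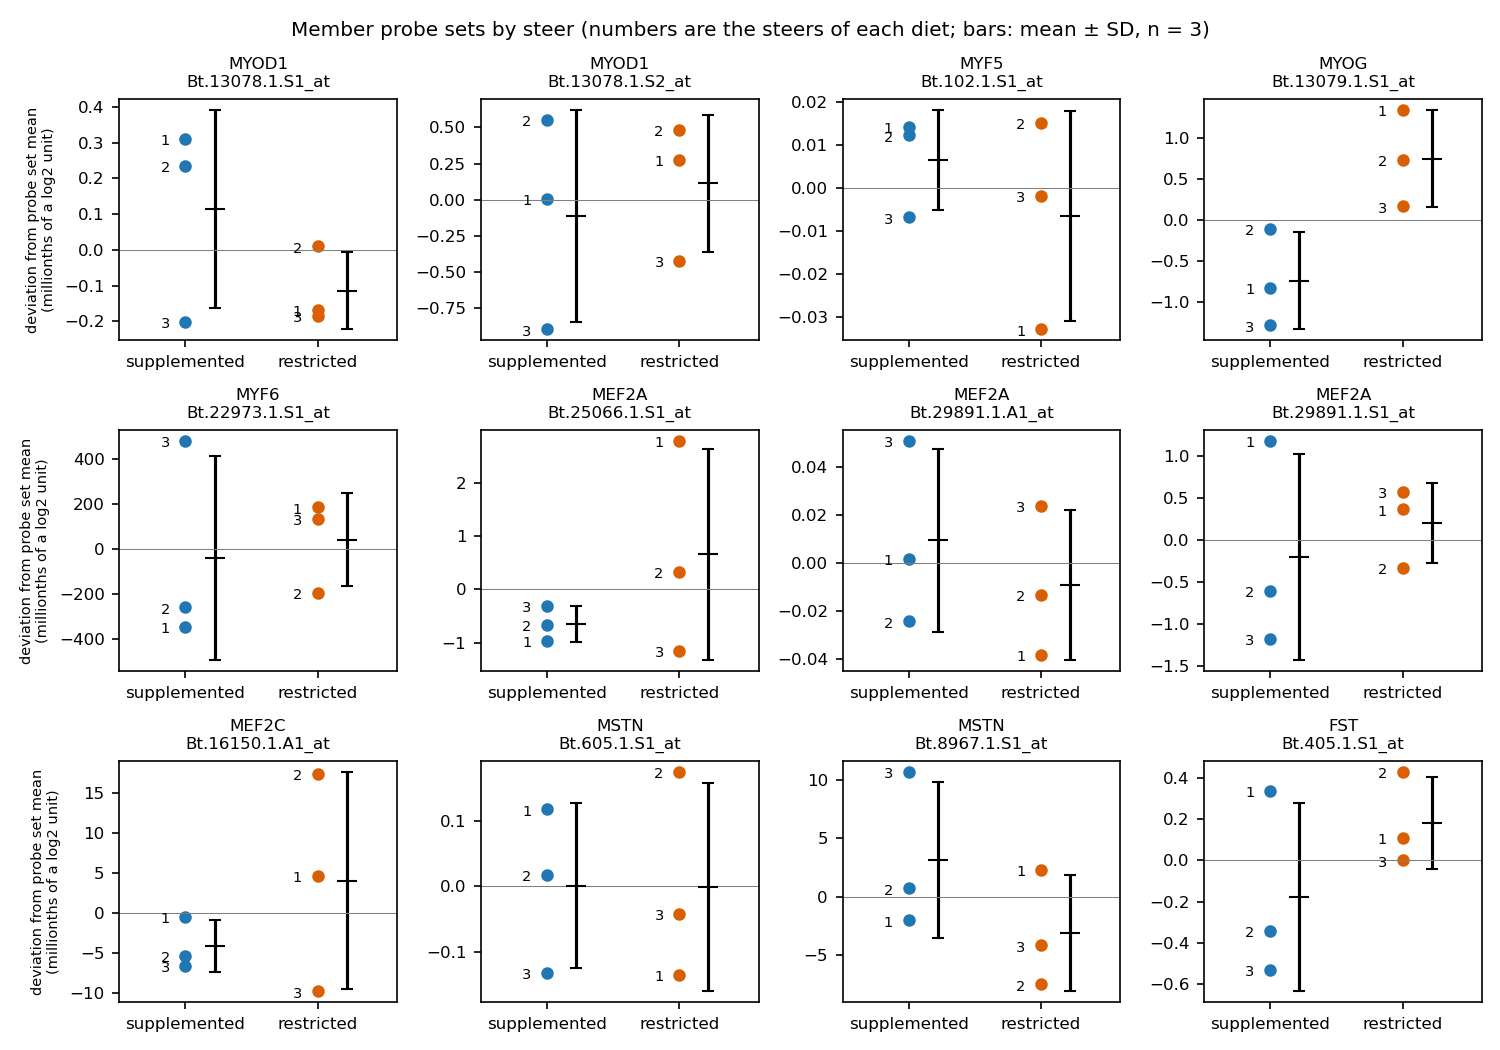
Each panel shows 1 member probe set: points are single steers (numbered within the diet), the vertical axis is the deviation from the mean of the 6 arrays in millionths of a deposited log2 unit on a scale of its own, and the bars are the mean and SD of 3 steers. The groups are apart in MYOG and overlap in the other panels; the range runs from 0.048 millionths in MYF5 to 828 in MYF6.

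MEF2A, a partner of the myogenic factors, has 3 probe sets, which shared no order of steers. Bt.25066.1.S1_at, at 6.577 the highest reading of the 3, deviated by -0.973, -0.665 and -0.310 millionths in supplemented and by 2.78, 0.325 and -1.15 in restricted steers 1, 2 and 3. Restricted steer 1 stands apart at the top, while restricted steer 3 is the lowest of all. The difference was 1.30 ± 1.10 millionths (SE) or 0.913 SDs (limma unadjusted p = 0.296). It was 0.235 millionths without restricted steer 1, 2.2 without restricted steer 3 and 0.323 when age was a covariate. Bt.29891.1.S1_at differed by 0.404 ± 0.722 millionths or 0.432 SDs, with supplemented steer 1 highest at 1.18 and supplemented steer 3 lowest at -1.18. The sign of both turned after median alignment, and that of the latter also when age was a covariate. Bt.29891.1.A1_at, close to the lowest values of the array, differed by -0.0187 ± 0.0363 millionths or -0.536 SDs within a range of 0.089 millionths, and its sign turned when age was a covariate.

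MEF2C, which in adult muscle supports sarcomere genes and slow fibre programmes, deviated around 5.875 by -0.395, -5.32 and -6.57 millionths in supplemented steers 1, 2 and 3 and by 4.67, 17.4 and -9.75 in restricted steers 1, 2 and 3. The restricted group spans the whole range, with its steer 2 the highest and its steer 3 the lowest of the 6. The SDs were 3.27 millionths in supplemented and 13.6 in restricted steers. The difference was 8.19 ± 7.61 millionths (SE) or 0.830 SDs (limma unadjusted p = 0.336). It was 1.56 millionths without restricted steer 2, 15.1 without restricted steer 3 (limma unadjusted p = 0.0453) and 0.419 when age was a covariate. In whole muscle, more RNA of a gene per cell and more cells that express it cannot be told apart.

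MSTN, encoding myostatin, has 2 probe sets, and they put different steers at the extremes. Bt.8967.1.S1_at, at 5.14 and the 49.4th percentile, deviated by -2.02, 0.718 and 10.7 millionths in supplemented steers 1, 2 and 3 and by 2.32, -7.51 and -4.18 in restricted steers 1, 2 and 3. Supplemented steer 3 is the highest and restricted steer 2 the lowest, but restricted steer 1 lies above supplemented steers 1 and 2, so the groups overlap. The means were 3.12 ± 6.68 and -3.12 ± 5.0 millionths (SD, n = 3 each). The difference of -6.25 ± 4.55 millionths (SE) or -1.06 SDs had a limma unadjusted p of 0.235 and a 95% interval from -18.4 to 5.87 millionths. It kept its direction when any single steer was left out, at -8.97 to -2.47 millionths, the smallest in size without supplemented steer 3.

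Bt.605.1.S1_at, the MSTN probe set near the lowest values of the array, deviated by 0.117, 0.0178 and -0.131 millionths in supplemented steers and by -0.135, 0.174 and -0.0422 in restricted steers 1, 2 and 3. Here restricted steer 2 is the highest, and supplemented steer 3 is next to the lowest. The difference was -0.00233 ± 0.113 millionths (SE) or -0.0164 SDs, and its sign turned with 4 of the 6 steers when left out singly. The 2 probe sets thus differ in the size of their spread, with ranges of 18.2 and 0.309 millionths at the 90.2nd and 31.8th percentiles of all probe sets.

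FST, encoding follistatin, deviated around 5.643 by 0.335, -0.343 and -0.530 millionths in supplemented steers 1, 2 and 3 and by 0.108, 0.428 and 0.000333 in restricted steers 1, 2 and 3. Supplemented steers 2 and 3 were the lowest of the 6, while supplemented steer 1 was exceeded by restricted steer 2 only. The difference was 0.358 ± 0.277 millionths (SE) or 0.999 SDs (limma unadjusted p = 0.259), with a 95% interval from -0.380 to 1.10 millionths. It was 0.615 millionths without supplemented steer 1 (limma unadjusted p = 0.0282), 0.183 without supplemented steer 3 and 0.0651 when age was a covariate, and it turned to -1.87 after median alignment.

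**Figure D3:**
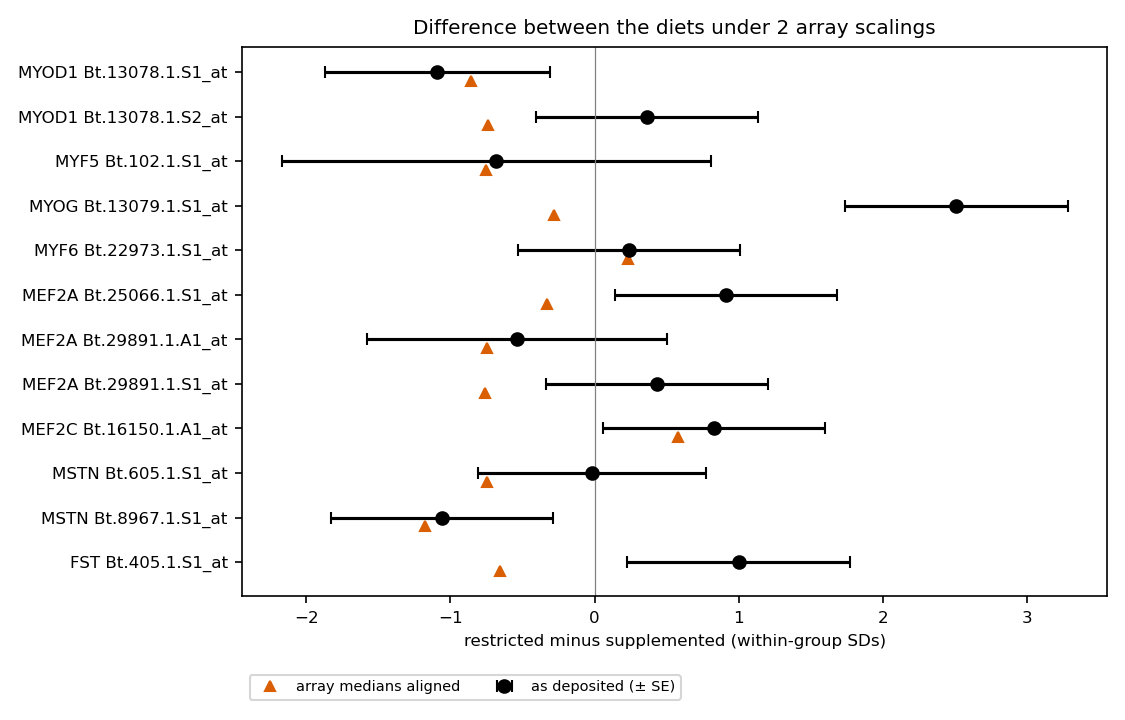
Difference between the diets for each member probe set in within-group SDs: values as deposited with the SE of the fit (black) and array medians aligned (orange triangles). MYOG stands at 2.51 and -0.282 SDs; the orange triangles of MYOG, FST, Bt.13078.1.S2_at of MYOD1 and 2 probe sets of MEF2A lie on the other side of 0.

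The steers at the extremes recurred among the members. Supplemented steer 3 had the lowest value in 5 and the highest in 3 of the 12 probe sets, against 18.7% and 17.4% of all tested probe sets. Restricted steer 2 had the highest value in 4 of them, against 15.2% of all. Several of these probe sets belong to the same gene, so the counts are a description. Supplemented steer 3 was also the oldest, at 618 days, and restricted steer 1 the youngest, at 589 days.

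The profiles over the 6 steers most like those of MYOG and MSTN were found by the distance between values centred and scaled to unit SD. The search covered 13291 probe sets with 1 gene, the searched probe set included. Nearest to MYOG were ALG13 (distance 0.385), DNASE1L3 (0.508) and TUBGCP5 (0.510). Nearest to Bt.8967.1.S1_at of MSTN were LRP12 (0.398), MARK1 (0.466) and VPS13D (0.547). LRP12 deviated by -0.596, -0.794 and 8.94 millionths in supplemented and by 2.43, -6.79 and -3.18 in restricted steers 1, 2 and 3, with the same highest and lowest steer as MSTN. Only these 2 profiles were searched, over 6 arrays, and the nearest ones are given as a description.

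Related genes were taken from 6 lists of partners, upstream regulators, stem cell markers, signalling parts and targets. Of 149 genes listed, 86 had a probe set with that 1 symbol. Their 118 probe sets had 52 higher and 66 lower values in restricted steers, with a median of -0.0662 SDs beside -0.0328 SDs over all tested probe sets. The median was 0.0333 SDs without supplemented steer 1, 0.0962 without supplemented steer 2 and 0.00908 without restricted steer 3. After median alignment 26 of the 118 were higher, with a median of -0.718 SDs. Alignment adds -2.22 millionths to every difference, while the median range of all probe sets is 0.677 millionths. Counts after alignment, here and for the lists and markers below, therefore also follow how narrowly the probe sets spread. The share of all probe sets after alignment is not set beside them. None of the 118 passed the limma adjusted threshold, and at an unadjusted p under 0.05 there were 0 higher and 2 lower, against 1.91% and 2.17% of all. Groups did not overlap in 5 higher and 3 lower of the 118, against 4.12% and 4.64% of all tested probe sets.

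Partners of the myogenic factors did not share a direction. Of the 9 probe sets for E proteins and Id proteins, 4 were higher and 5 lower, with a median of -0.041 SDs that ran from -0.173 to 0.161 with single steers left out; 2 were higher after median alignment. TCF12, an E protein that pairs with the myogenic factors, deviated by -3.41, -3.21 and -0.607 millionths in supplemented and by 1.55, 5.85 and -0.173 in restricted steers, without overlap. Its difference was 4.81 ± 1.89 millionths (SE) or 1.96 SDs (limma unadjusted p = 0.0573). TCF3, another E protein, had -0.067 millionths or -1.17 SDs in 1 of its 2 probe sets, and both ran the same way. TCF4, a further E protein, differed by 1.57 SDs, in the direction of TCF12. ID1, which holds E proteins away from DNA, had 0.847 SDs in 1 of its 2 probe sets and the other sign in the other.

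Upstream and co-regulators, with 16 of 40 genes measured, had 13 probe sets higher and 13 lower and a median of 0.0385 SDs. The deacetylase SIRT1 (1.84 SDs, without overlap but under the 25th percentile of level), the calcium-dependent kinase CAMK2D (1.40 SDs) and the factor TEAD4 (-1.22 SDs) had the smallest unadjusted p values there, from 0.0751 to 0.18 in limma. The other SIRT1 probe set, at the 79.2nd percentile of level, differed by 0.256 SDs. Satellite cell and myoblast markers, with 12 of 22 genes measured, had 9 higher and 8 lower and a median of 0.207 SDs. Among them the growth factor receptor FGFR4 differed by -0.229 ± 0.081 millionths (SE) or -2.29 SDs (limma unadjusted p = 0.0417). MET, the receptor of hepatocyte growth factor on satellite cells, differed by 1.64 SDs and the laminin receptor subunit ITGA7 by 1.40 SDs. Groups did not overlap in 2 higher and 1 lower of the 17 marker probe sets, against 4.12% and 4.64% of all tested probe sets. Among those without overlap were a probe set of FGFR4 and that of MET. With single steers left out the median ran from -0.343 to 0.502 SDs for the upstream list and from -0.222 to 0.638 for the marker list. After median alignment 7 of the 26 upstream and 4 of the 17 marker probe sets were higher.

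The list of receptors, SMAD signalling and processing proteases of the myostatin pathway, with 7 of 16 genes measured, read lower in 8 of 9 probe sets, with a median of -0.696 SDs, where 51.7% of all tested probe sets read lower. Of these 8, 2 are probe sets of FURIN, a protease that processes myostatin precursors (-0.903 and -1.1 SDs). SMAD3 also counts with both of its probe sets, at -0.696 and -0.000383 SDs, the latter almost no difference. SMAD4 differed by -0.144 SDs and ACVR2B by -0.247 SDs. No member of the list reached an unadjusted p under 0.05 in limma in either direction. TGFBR1, a type I receptor, differed by -1.29 SDs and SMAD2 by -1.13 SDs, while ACVR2A, a type II receptor that binds myostatin, differed by 1.34 SDs. The count of 8 was 5 without supplemented steer 2 and 5 without restricted steer 1, 6 when age was a covariate and 9 after median alignment.

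Binding proteins and related ligands, with 12 of 20 genes measured, had 9 of 15 probe sets higher and 6 lower and a median of 0.320 SDs, and 2 of 15 were higher after median alignment. The median was -0.277 SDs without restricted steer 2, -0.136 without supplemented steer 2 and -0.36 with age as a covariate. CRIPTO, a coreceptor, differed by 1.69 SDs without overlap, at the 1.81st percentile of level, among the lowest readings of the array. TGFB1 differed by -1.57 SDs and FMOD, a matrix proteoglycan, by -0.927 SDs.

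Genes known as targets of the myogenic factors and MEF2, with 33 of 44 measured, had 16 of 42 probe sets higher and 26 lower, with a median of -0.194 SDs. The split became 22 higher and 20 lower without supplemented steer 1, and likewise without restricted steer 3, with medians of 0.0333 and 0.0588 SDs; 11 of 42 were higher after median alignment. PYGM, muscle glycogen phosphorylase, deviated by 8.18, 20.2 and 12.5 millionths in supplemented and by -8.83, -10.3 and -21.8 in restricted steers, a difference of -27.3 ± 5.10 millionths (SE) or -4.13 SDs (limma unadjusted p = 0.00424, adjusted p = 1.0). PGAM2, the muscle phosphoglycerate mutase, differed by -1.92 SDs, and neither gene overlapped between the groups. PDLIM3, a protein of the Z disc, differed by 1.08 SDs.

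**Figure D4:**
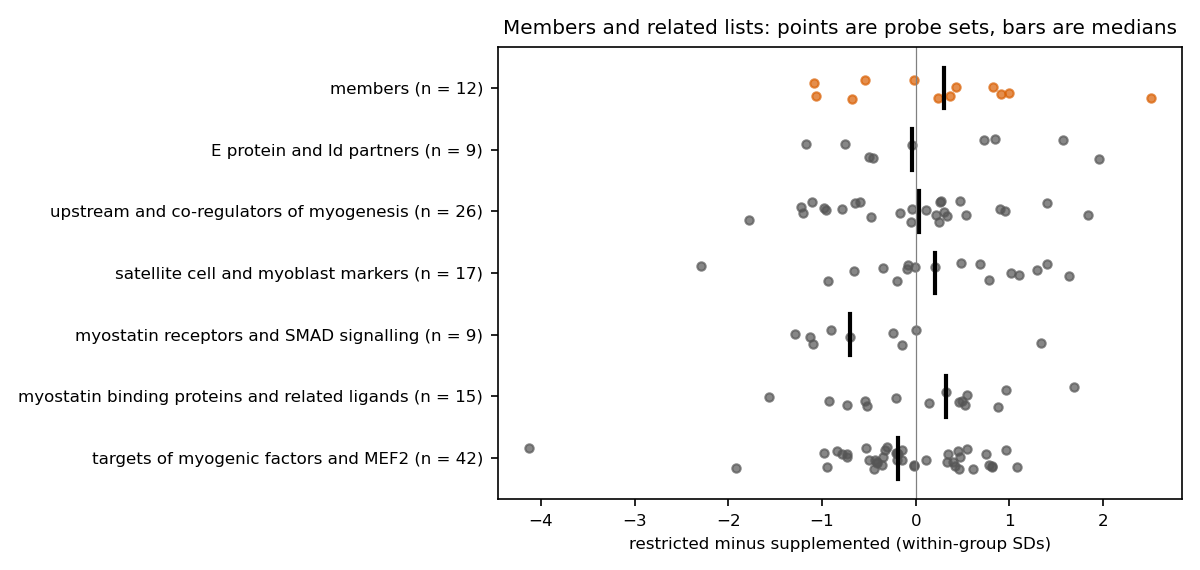
Difference between the diets in within-group SDs for the 12 member probe sets (orange) and for the probe sets of the 6 related lists (grey); each point is a probe set and each bar the median of its list. The points of every list lie on both sides of 0, MYOG being the rightmost member at 2.51 SDs and PYGM the leftmost point of the targets at -4.13 SDs.

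Markers of other cell types in the muscle were set beside MYOG, each gene by the probe set that reads highest on average. Of 7 measured adipocyte markers 7 were higher in restricted steers, 6 after median alignment and 6 without restricted steer 1. Their summed values deviated from -24100 to 8300 millionths in supplemented and from -8330 to 20600 in restricted steers, so the groups overlap in this sum. Over all 9 probe sets of these genes 8 were higher and 1 lower. Of the higher ones 1 had an unadjusted limma p under 0.05 (1.91% of all tested probe sets). Groups did not overlap in 1 of them (4.12% of all), and none passed the adjusted threshold. Endothelial markers were higher in 5 of 6 (3 after median alignment), fibroblast markers in 2 of 6 (2 after median alignment, but 5 without supplemented steer 1), macrophage markers in 2 of 4 and red blood cell markers in 2 of 3 (0 of each after median alignment). Without restricted steer 1, red blood cell markers were higher in 1 of 3 and macrophage markers in 1 of 4, the latter also without supplemented steer 3. Of the 9 muscle fibre markers 2 were higher and 7 lower, with summed deviations from -190 to 134 millionths in supplemented and from -189 to 293 in restricted steers. Over all 19 probe sets of these fibre genes, several to a gene, 14 were lower, 3 of them at an unadjusted limma p under 0.05 (2.17% of all tested probe sets) and 5 without overlap between the diets (4.64% of all), while none passed the adjusted threshold. PYGM is on this list too. The part of fibre, fat or vessel cells in the MYOG difference was not tested.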

How the data were processed

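Muscle RNA of 6 steers was labelled with biotin from 100 ng for a 3 prime expression array, per the labels' protocols. The table the authors deposited holds 24128 probe sets on 6 arrays, with values taken as log2 because of their range; the log base, and how background, normalization and summarization were done, is not given in the sources used here. Without the 112 control probe sets, limma 3.58.1 (lmFit, then eBayes with no trend; R 4.3.3) compared restricted with supplemented steers in every probe set, with 4 residual and 0.483 prior degrees of freedom. P-values were adjusted by Benjamini and Hochberg's method over all 24016 probe sets, at a threshold of 0.05. Values were multiplied by 1000000 first, which changes no p-value. Where probe sets have small spread, the moderated SE is larger than the SD alone gives.

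Gene symbols came from the platform annotation, and the 8 member genes matched the ARS-UCD2.0 RefSeq table by gene identifier. No build is named for the array, so no coordinates are given. Members, lists and rules were chosen with earlier results of these data known. Named are all member probe sets, up to 3 genes per related list by unadjusted p, and the 3 nearest profiles of MYOG and MSTN. FURIN, SMAD3, SMAD4, ACVR2B and TCF4 are named in addition. Ages were compared with an exact permutation test. Arrays give no molecule counts, and their number limits the precision. Alternatives were other array scalings, covariates, level filters, variance models and leaving out each steer.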

Additional observations from a re-analysis of the deposited data

How the results depend on the processing

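No member probe set passed the adjusted threshold under any of the alternatives run. The count over all probe sets, 1 as deposited, was 0 with age as a covariate, 0 with the replicate number as a block, 22 with quantile normalization and 1 to 2 with single steers left out, COPB1 joining DHRS3 without supplemented steer 3. After quantile normalization 15456 probe sets had no difference left between arrays at the file's last decimal. Rounding to that decimal and leaving them out was chosen after seeing the data; with all probe sets kept and unrounded, 35 were called, 0 of them members. The fit without them gave values for 4 of the 12 member probe sets, 3 of them higher, and it called 1 related probe set, TEAD4. The 7 higher member probe sets became 2 with array medians aligned and 6 to 9 with single steers left out.

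With medians aligned the difference turned to -2.0 millionths for Bt.13078.1.S2_at of MYOD1, -0.736 for MYOG, -0.925 and -1.82 for Bt.25066.1.S1_at and Bt.29891.1.S1_at of MEF2A and -1.87 for FST, since it adds the same -2.22 millionths to each. With age as a covariate it turned to -0.203 for Bt.13078.1.S2_at, 0.00983 for Bt.29891.1.A1_at and -0.074 for Bt.29891.1.S1_at; the cause was not tested. With the arrays shifted by the median deviation of all probe sets, an alternative chosen after seeing the data whose shifts span only 0.0137 millionths and so can hardly move most members, Bt.605.1.S1_at of MSTN turned to 0.000833 and no other member turned. With single steers left out, the differences that turned ran from -0.168 to 0.557 millionths for Bt.13078.1.S2_at, -0.0238 to 0.000167 for MYF5, -68.1 to 346 for MYF6, -0.0355 to 0.002 for Bt.29891.1.A1_at, -0.0848 to 1.10 for Bt.29891.1.S1_at and -0.0898 to 0.0647 for Bt.605.1.S1_at.

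Steers of the 2 diets share the numbers 1 to 3, which were not taken to pair them. The deviations of same-numbered steers correlated by 0.0777, 0.0403 and 0.0403 (Spearman, across probe sets). Differently numbered steers were not compared, so these values cannot show whether the steers are paired. With the replicate block 7 member probe sets were higher and 0 passed the threshold. MYOG had 3.15 SDs there, with the difference unchanged at 1.49 millionths. Its limma unadjusted p was 0.0337, against 0.0265 without the block. With 3 steers a diet, the 95% intervals of 9 of the 12 member probe sets extend over 1 SD on both sides of 0.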
